A study of Mus musculus with 26 samples.

Results

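Heat shock proteins are molecular chaperones, and 8 of their genes are described here in pancreatic islets of the mouse: Hspa1a, Hspa1b, Hspa8, Hsph1, Dnajb1, Hspb1, Hspd1 and Hsp90aa1. The genes were chosen by name. Each is represented by the brightest of the probe sets annotated to it alone, where brightness is the mean log2(intensity + 16) over all 26 arrays. The 8 genes have 20 such probe sets, of which 18 passed a filter on dim signals, and all 8 genes are among the 12580 genes tested. Hspd1 is a nuclear gene whose product works in the mitochondrion, so the 8 are not all cytosolic proteins.

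The islets came from wild-type male mice of strain C57BL6, and groups of 2 arrays were made unless stated otherwise. Old mice were 56 weeks of age, and their islets were kept for 2 days at 3, 5.5 or 11 mM glucose after 1 day of recovery at 11 mM, or were used fresh. Young mice were 5 weeks of age, and their islets were kept in the same way at 3, 5.5, 11 (4 arrays) or 16 mM, or were used fresh. A further time course of young islets began after a night at 3 mM (0 h) and went on to 1 h and 4 h at 11 mM. All cultured islets were in RPMI medium with fetal calf serum. The labels call the replicates biological and do not say whether mice were pooled, so a p-value reflects only the spread among the arrays at hand. Islets hold several cell types, and in such whole tissue fewer cells of a type and less RNA per cell cannot be told apart.

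Chaperones of the HSP70 family bind unfolded stretches of protein and release them on ATP hydrolysis. Hspa1a and Hspa1b are the strongly stress-inducible forms, and Hspa8 is the form that most cells make all the time. Dnajb1, of the HSP40 family, stimulates their ATPase, and Hsph1, of the HSP110 family, exchanges their nucleotide. Hsp90aa1 encodes the inducible cytosolic HSP90, Hspb1 a small heat shock protein that holds unfolded protein without ATP, and Hspd1 the mitochondrial chaperonin HSP60. Heat shock factor 1 (HSF1) is held inactive by chaperones, and when unfolded protein occupies them it binds DNA as a trimer at repeats of the letters GAA in alternating orientation. In the beta cell, the insulin-producing cell of the islet, protein synthesis rises with glucose.

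The upstream sequences of the genes are shown because they hold the letters that HSF1 reads and because they show how alike Hspa1a and Hspa1b are. RefSeq sequences (build GRCm38.p6) were matched for 6 of the 8 genes, with 9 annotated starts. Hspa8 and Hsp90aa1 were not matched. In 250 bases before each start, pairs of inverted repeats (GAANNTTC or TTCNNGAA, each its own reverse complement) were searched, and also triples, in which a pair of either kind goes on to another repeat at the same spacing. A triple therefore contains overlapping pairs, and both strands were searched. Capitals mark the matches, and positions are counted backward from the start, with -1 as the base before it.
Hspa1a (chr17:34972157-34972406, minus strand): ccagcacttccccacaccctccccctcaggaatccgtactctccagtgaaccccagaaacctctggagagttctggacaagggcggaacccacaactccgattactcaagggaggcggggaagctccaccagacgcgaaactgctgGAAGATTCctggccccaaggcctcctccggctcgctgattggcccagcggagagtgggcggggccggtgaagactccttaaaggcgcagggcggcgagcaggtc
Hspb1 (chr5:135887769-135887868, plus strand): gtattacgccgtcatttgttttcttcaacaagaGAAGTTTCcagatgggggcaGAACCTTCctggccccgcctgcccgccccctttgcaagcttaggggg
Hspd1 (chr1:55088053-55088082, minus strand): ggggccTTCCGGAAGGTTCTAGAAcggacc
Hsph1 (chr5:149636351-149636380, minus strand): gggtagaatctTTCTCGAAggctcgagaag
The 250 bases before Hspa1b (chr17:34959239-34959488, minus strand) are 98.8% identical to those of Hspa1a. They differ at 3 positions, C-207T, T-204C and T-2G, with the base of Hspa1a first and that of Hspa1b last. Both genes hold the pair GAAGATTC at positions -104 to -97. Hspd1 holds a run of 3 overlapping pairs and 2 triples at -144 to -127 of its inner start, and Hspb1 holds 2 separate pairs. A pair was found before 5 of the 6 matched genes, with none before either start of Dnajb1. Of 32851 upstream sequences of the same length, 12.8% hold a pair and 0.466% hold a triple. Counted by gene over all its starts, as for the 6, these shares are 14.5% and 0.514% of 27025 genes. The Hspd1 sequence shares 215 of its 250 bases with the window before Hspe1, the gene of its co-chaperonin HSP10, which is read from the opposite strand. A match describes the letters and shows neither binding nor a cause of any change.

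The deposited values are intensities that the authors scaled to a trimmed mean of 150 on every array, and precision is limited by how few arrays a group has. Gapdh control probe sets at the 5' end, relative to those at the 3' end, separated the arrays into a set A and a set B, a split absent from the labels. Set A (ratio 1.03 to 1.48) has 12 arrays, namely all arrays of old mice, fresh young islets, and young islets at 11 mM in replicates 3 and 4. Set B (ratio 0.1 to 0.277) has the other 14. The set is therefore a term of the linear model, so young islets at 11 mM were compared with fresh young islets through their set A arrays and with other cultured young islets through their set B arrays. Old and young islets at 3 and 5.5 mM lie in different sets and were not compared. A gene is said to rise or fall where its Benjamini-Hochberg adjusted p over all 12580 genes of a comparison is under 0.05 in limma. Changes are on the log2(intensity + 16) scale, which understates those of dim genes, with the moderated standard error (SE). Intensities of different probe sets are not comparable with each other. As a check of the tissue, 8 of 8 beta cell markers were measured, and their summed intensity lay between 15370 and 55120 on every array.

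**Figure D1:**
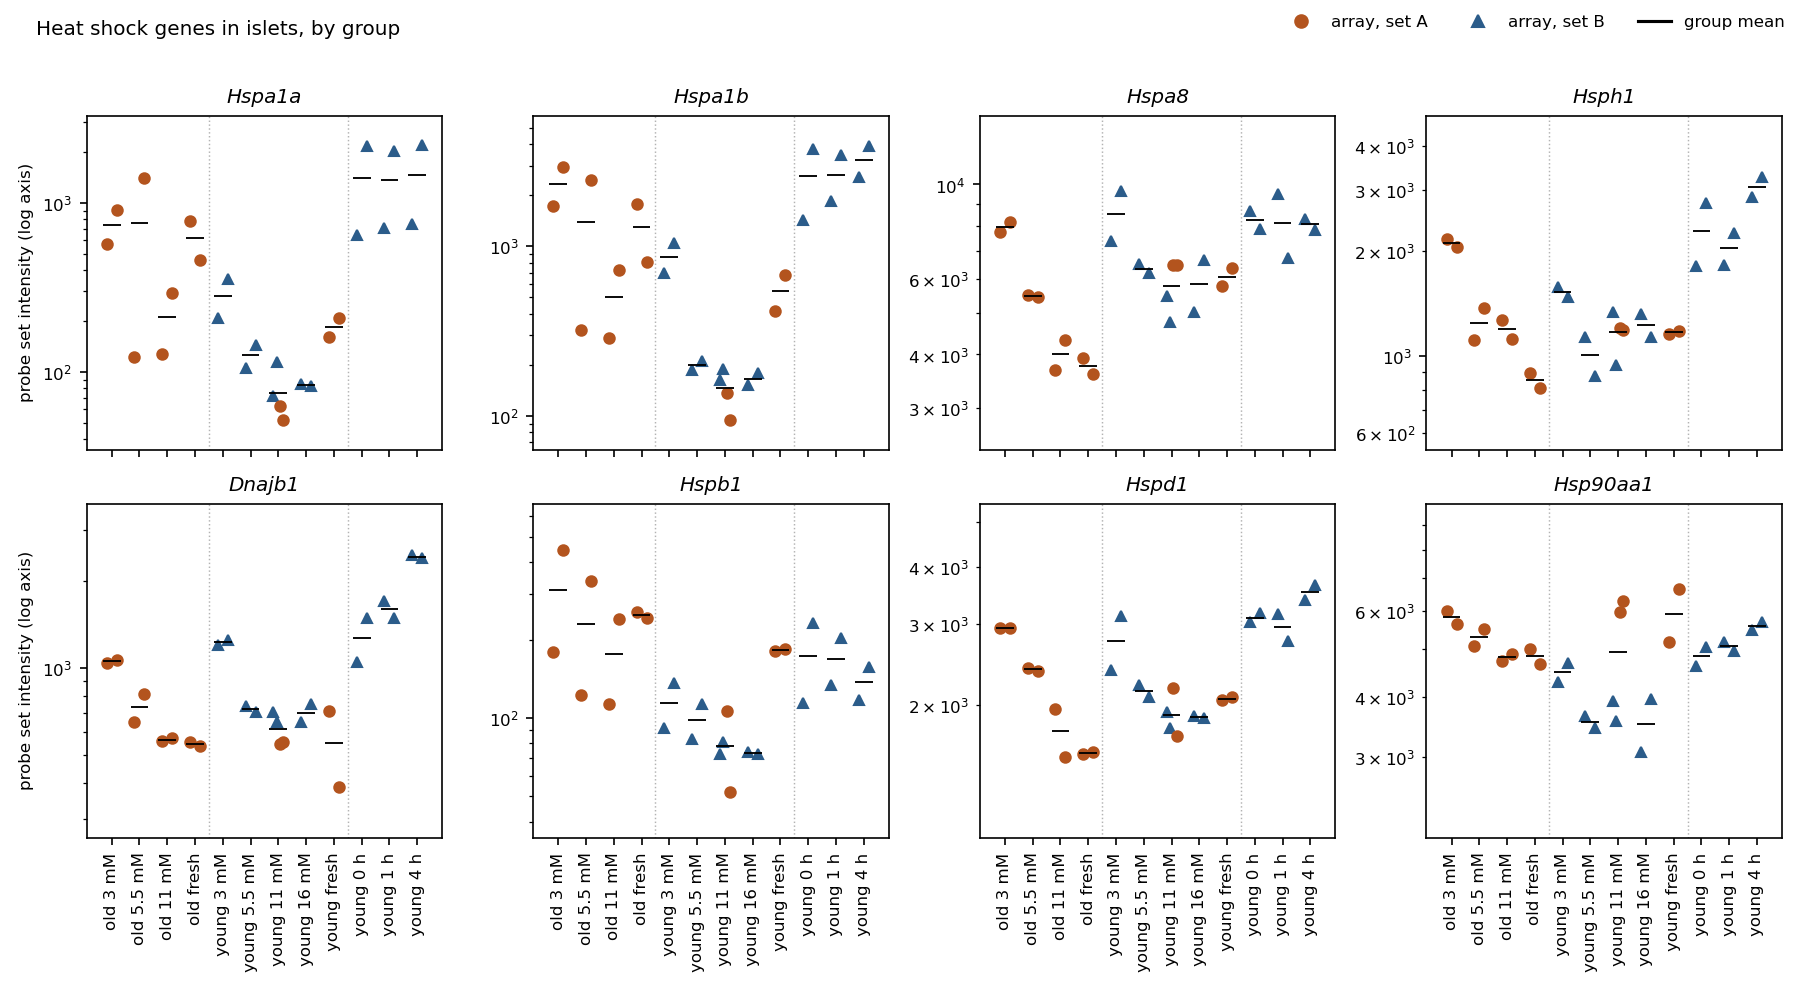
Intensity of the probe set of each gene (log axis) on every array, by group; circles are arrays of set A, triangles those of set B and black lines group means. Intensities of Dnajb1, Hspd1 and Hspa8 at 3 mM lie above those at 11 mM in old islets, and Hspa1a replicates of old islets at 5.5 mM lie at 123 and 1404.

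In cultured old islets the heat shock genes had their highest mean intensity at 3 mM glucose, except Hspa1a, whose replicates spread most at 5.5 mM. At 11 mM, 5 of the 8 fell against 3 mM (Hspa1b, Hspa8, Hsph1, Dnajb1 and Hspd1), while 10.6% of all genes were called lower and 24.6% changed in either direction. All 8 changes were below 0, with a median of -0.85 against 0.04 over all genes. The constitutive Hspa8 had intensities of 7724 and 8170 at 3 mM, 5503 and 5462 at 5.5 mM and 3682 and 4326 at 11 mM. Its 3 doses did not overlap, and it fell by 0.99 on the log2 scale at 11 mM (SE 0.15, adjusted p = 9.99e-05). The chaperonin gene Hspd1 had 2938 and 2948 at 3 mM, 2411 and 2375 at 5.5 mM and 1966 and 1546 at 11 mM, likewise without overlap. It fell by 0.75 (SE 0.13, adjusted p = 0.000285). Dnajb1, the HSP40 partner, had 1042 and 1064 at 3 mM, 650 and 814 at 5.5 mM and 559 and 571 at 11 mM, and fell by 0.88 (SE 0.19, adjusted p = 0.00181). Hsph1, the nucleotide exchange factor, had 2160 and 2058 at 3 mM, 1112 and 1372 at 5.5 mM and 1264 and 1121 at 11 mM. Its level at 11 mM overlapped that at 5.5 mM, and it fell by 0.82 against 3 mM (SE 0.18, adjusted p = 0.00234).

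The inducible HSP70 genes and Hspb1 differed widely between replicates of cultured old islets. Hspa1b had 1730 and 2945 at 3 mM, 323 and 2477 at 5.5 mM and 289 and 722 at 11 mM. Its 3 and 11 mM arrays did not overlap, and it fell by 2.26 at 11 mM (SE 0.64, adjusted p = 0.0125). That call was lost without replicate 2 at 3 mM (adjusted p = 0.109) or without replicate 1 at 11 mM (adjusted p = 0.153). Hspa1a had 568 and 904 at 3 mM, 123 and 1404 at 5.5 mM and 127 and 293 at 11 mM, a change of -1.80 at 11 mM that did not pass (SE 0.75, adjusted p = 0.0875). At 5.5 mM replicate 2 was 11.4 times as high as replicate 1 in Hspa1a and 7.67 times as high in Hspa1b. Hspb1 had 180 and 445 at 3 mM, 123 and 336 at 5.5 mM and 113 and 241 at 11 mM, so its doses overlapped and its change of -0.72 did not pass (SE 0.42, adjusted p = 0.237). Hsp90aa1 had 6007 and 5629 at 3 mM, 5072 and 5514 at 5.5 mM and 4738 and 4905 at 11 mM. These did not overlap, yet the change of -0.27 did not pass (SE 0.12, adjusted p = 0.111).

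Between neighbouring doses the changes in old islets were smaller. At 5.5 against 3 mM, 2 of the 8 genes fell, Hsph1 by 0.76 (adjusted p = 0.0183) and Hspa8 by 0.53 (adjusted p = 0.0494), where 2.3% of all genes were called lower and 4.69% called either way. Both calls were lost when any 1 of the 4 arrays was left out, and without the array set term (adjusted p = 0.0635 for Hsph1 and 0.185 for Hspa8). Hsph1 also lost its call with the mean of probe sets. Hspa8 also lost its call with no filter, no intensity trend, or a block by array set and replicate number. At 11 against 5.5 mM none of the 8 passed (4.36% of all genes were called), with 2 at an unadjusted p under 0.05, and Hspd1 came nearest at -0.45 (adjusted p = 0.0505). Without replicate 1 at 11 mM it passed (0.0267), and without the high replicate 2 at 5.5 mM Hspa1b fell against 3 mM (-2.75, adjusted p = 0.0274). Without the low replicate 1 at 5.5 mM its change was 0.13 (adjusted p = 0.949). These comparisons share arrays, the 3 mM ones or the 5.5 mM ones, so they are not independent of each other.

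In cultured young islets of set B all 8 genes had their highest mean intensity at 3 mM. At 11 mM, 4 of the 8 fell against 3 mM (Hspa1b, Hspa8, Dnajb1 and Hspd1), where 13.1% of all genes were called lower and 26.4% either way. At 16 mM, 5 of the 8 fell (the same 4 and Hsp90aa1), where 14.2% were called lower and 28.7% either way. All 8 changes were below 0 at both concentrations, with medians of -0.64 at 11 mM and -0.54 at 16 mM, against 0.05 and 0.01 over all genes. Both comparisons share the 3 mM arrays, so they are not independent of each other. Dnajb1 had 1198 and 1252 at 3 mM, 740 and 704 at 5.5 mM, 701 and 650 at 11 mM (set B) and 650 and 747 at 16 mM. The 3 mM arrays stood above all others, and Dnajb1 fell by 0.84 at 11 mM (SE 0.19, adjusted p = 0.00238) and by 0.80 at 16 mM (adjusted p = 0.00309). Hspa1b had 694 and 1044 at 3 mM, 187 and 211 at 5.5 mM, 163 and 190 at 11 mM and 152 and 179 at 16 mM. Again only the 3 mM arrays stood apart, and Hspa1b fell by 2.18 at 11 mM (SE 0.64, adjusted p = 0.0152), with a change of -2.26 at 16 mM (adjusted p = 0.0107). Hspa8 had 7380 and 9658 at 3 mM, 6512 and 6202 at 5.5 mM, 5488 and 4760 at 11 mM and 5034 and 6664 at 16 mM. It fell by 0.72 at 11 mM (SE 0.15, adjusted p = 0.00154) and by 0.54 at 16 mM (adjusted p = 0.0107). Hspd1 had 2385 and 3121 at 3 mM, 2209 and 2084 at 5.5 mM, 1937 and 1784 at 11 mM and 1898 and 1876 at 16 mM. Its 3 mM arrays were the highest of the dose series, and it fell by 0.55 at 11 mM (SE 0.13, adjusted p = 0.00357) and by 0.53 at 16 mM (adjusted p = 0.00417).

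The other 4 genes changed less clearly in young islets. Hspa1a had 207 and 353 at 3 mM, 106 and 144 at 5.5 mM, 72 and 114 at 11 mM and 85 and 83 at 16 mM. Its 3 mM arrays stood above the rest, but the changes of -1.42 at 11 mM (adjusted p = 0.177) and -1.52 at 16 mM (adjusted p = 0.141) did not pass. Hsph1 had 1574 and 1478 at 3 mM, 1137 and 874 at 5.5 mM, 1340 and 941 at 11 mM and 1318 and 1137 at 16 mM, and its change of -0.44 at 11 mM missed the threshold (adjusted p = 0.0816). Hsp90aa1 had 4278 and 4700 at 3 mM, 3645 and 3455 at 5.5 mM, 3923 and 3565 at 11 mM and 3074 and 3961 at 16 mM. It fell by 0.36 at 16 mM (SE 0.12, adjusted p = 0.0284), and its -0.26 at 11 mM did not pass (adjusted p = 0.118). Hspb1 lay between 73 and 137 on these 8 arrays, and its changes of -0.47 at 11 mM and -0.52 at 16 mM did not pass.

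Several of these calls were lost when 1 array was left out, which leaves 1 array on that side of the comparison and widens the SE. Without replicate 2 at 3 mM, Hspd1 and Hspa1b lost their calls at both concentrations. Their changes were then -0.36 and -1.89 at 11 mM and -0.34 and -1.97 at 16 mM. In the same fit Hspa8 and Hsp90aa1 lost their calls at 16 mM (changes of -0.35 and -0.29). Without replicate 1 at 16 mM, Hspa1b, Hspa8 and Hsp90aa1 lost their calls there (changes of -2.15, -0.34 and -0.18). Hspa1b at 11 mM also lost its call without either of the set B arrays at 11 mM. Its change was -2.07 without replicate 1 and -2.28 without replicate 2, against -2.18 with all arrays. Hsp90aa1 lost its call without the array set term (adjusted p = 0.254). Its adjusted p was 0.0505 to 0.0521 with set B alone, with no filter and with no intensity trend. Hsph1 gained a call at 11 mM without replicate 1 there (change of -0.69). The calls of Dnajb1 against 3 mM at both concentrations held under every alternative tried. The main model does not pair arrays. Pairing of the cultured young arrays of set B by replicate number, which the labels do not state, entered only as an alternative. With the number as a block within each experiment 6 of the 8 genes fell at each concentration. Hspa1a was gained at both (adjusted p = 0.0376 at 11 mM and 0.0257 at 16 mM) and Hsph1 at 11 mM (0.011).

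Among neighbouring doses of young islets, the change furthest below 0 was that of 5.5 against 3 mM for every gene but Hspb1, an order that was not tested. At 5.5 against 3 mM only Dnajb1 fell, by 0.75 (SE 0.19, adjusted p = 0.0218), where 3.08% of all genes were called lower and 6.06% either way. Hsph1 at -0.61 (adjusted p = 0.0506) and Hspa1b at -2.01 (adjusted p = 0.065) just missed, and with the replicate block both passed (0.00379 and 0.0115). Hsph1 also passed without replicate 1 at 5.5 mM (0.0368). The Dnajb1 call was lost without any 1 of its 4 arrays and without the array set term (0.0837). At 11 against 5.5 mM none of the 8 passed (3.24% of all genes were called) and none had an unadjusted p under 0.05, with changes between -0.39 and 0.17. At 16 against 11 mM none passed either, with changes between -0.10 and 0.18 and none at an unadjusted p under 0.05, in a comparison that called 0.00795% of all genes. The effect of 11 against 3 mM was further below 0 in old than in young islets for all 8 genes, with differences between -0.38 and -0.01. None of these passed (lowest adjusted p = 0.671, with 0.143% of all genes called). The old arrays of this comparison are all of set A and the young ones all of set B. Age and array set therefore cannot be told apart in it.

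Other signals moved with glucose as well, and their part in these changes was not tested. The hybridization control cre-3, which is added in a fixed amount, changed by 0.40 at 11 against 3 mM in old islets, and by 0.23 at 11 mM and 0.54 at 16 mM against 3 mM in young islets. These changes of cre-3 were positive and those of the heat shock genes negative. Summed intensity of the 8 beta cell markers was 37653 to 45556 at 11 mM against 20991 to 22727 at 3 mM in old islets. In young islets of set B it was 29877 to 35776 at 11 mM and 36494 to 40348 at 16 mM, against 18499 to 21059 at 3 mM.

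**Figure D2:**
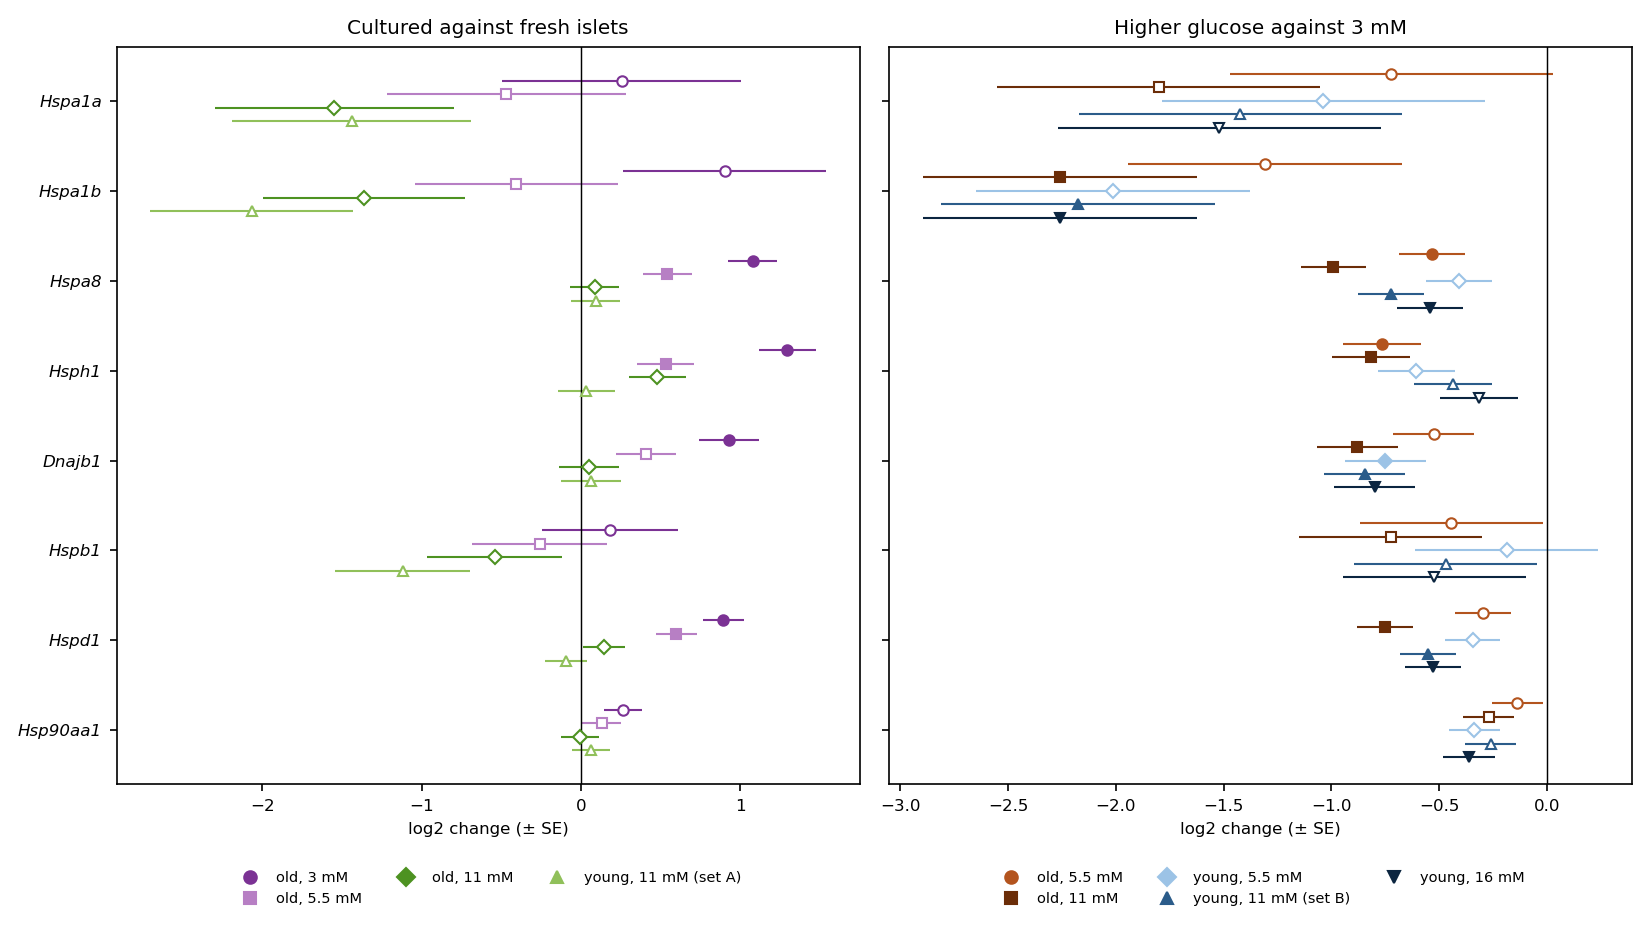
Log2 change of each gene with its SE in cultured against fresh islets (left) and at higher glucose against 3 mM (right); filled symbols have an adjusted p under 0.05 and open ones do not. On the right every change lies below 0, and on the left Hspa8, Hsph1, Dnajb1 and Hspd1 lie near 1 for old islets at 3 mM.

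Culture at 11 mM, the glucose of the recovery medium, was compared with fresh islets at both ages. None of the 8 genes passed in old islets, where 5.56% of all genes were called, and none in young islets, where 4.19% were called. At an unadjusted p under 0.05 there were 2 in each, Hspa1b and Hsph1 in old and Hspa1b and Hspb1 in young islets. The inducible HSP70 genes had the largest changes. Hspa1b had 289 and 722 in old islets at 11 mM, against 1781 and 810 in fresh old islets. In young islets it had 137 and 95 at 11 mM (set A), against 414 and 676 in fresh islets. The cultured arrays lay below the fresh ones at both ages, with changes of -1.36 in old (SE 0.64, adjusted p = 0.25) and -2.07 in young islets (SE 0.64, adjusted p = 0.0768). As the mean over both ages Hspa1b fell by 1.71 (SE 0.45, adjusted p = 0.0176), the only one of the 8 to pass, where 4.95% of all genes were called lower and 9.3% either way. That call was lost without old 11 mM replicate 1 (0.0895), old fresh replicate 1 (0.105), young 11 mM replicate 4 (0.0703) or young fresh replicate 2 (0.075).

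Hspa1a had 127 and 293 in old islets at 11 mM, against 784 and 456 in fresh ones, and 63 and 52 in young islets at 11 mM, against 161 and 207 in fresh ones. The groups did not overlap at either age, and the mean change of -1.49 over both ages did not pass (SE 0.53, adjusted p = 0.0874). Hspb1 had 113 and 241 in old islets at 11 mM, against 256 and 242 in fresh ones, and 107 and 52 in young islets at 11 mM, against 181 and 184 in fresh ones. Its mean change of -0.83 did not pass (SE 0.30, adjusted p = 0.0936), but did so without old 11 mM replicate 2 (0.0498). Hspa8, Dnajb1, Hspd1 and Hsp90aa1 had changes between -0.09 and 0.14 at the 2 ages, and those of Hsph1 were 0.48 in old islets (adjusted p = 0.14) and 0.03 in young ones. The culture effect did not differ between the ages for any of the 8 by its own test (lowest adjusted p = 0.707; 0.0238% of all genes called), with SEs of the difference between 0.17 and 1.06.

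In old islets at 3 mM the picture against fresh islets was another. Here 4 of the 8 genes rose (Hspa8, Hsph1, Dnajb1 and Hspd1), where 16.6% of all genes were called higher and 35.1% either way, and all 8 changes were above 0 with a median of 0.90 against -0.06 over all genes. Hsph1 had 2160 and 2058 at 3 mM against 894 and 808 in fresh islets and rose by 1.29 (SE 0.18, adjusted p = 1.61e-05). Hspa8 had 7724 and 8170 at 3 mM against 3935 and 3593 in fresh islets and rose by 1.08 (SE 0.15, adjusted p = 2.01e-05). Hspd1, with 2938 and 2948 at 3 mM against 1569 and 1585 in fresh islets, rose by 0.89 (adjusted p = 2.5e-05). Dnajb1, with 1042 and 1064 at 3 mM against 555 and 535 in fresh islets, rose by 0.93 (adjusted p = 0.00069). All 4 calls held without any 1 array. Hspa1a, with 568 and 904 at 3 mM against 784 and 456 in fresh islets, overlapped between the groups with a change of 0.25 (adjusted p = 0.823). At 5.5 mM against fresh islets 3 of the 8 rose, Hspd1 by 0.60 (adjusted p = 0.00307), Hspa8 by 0.54 (adjusted p = 0.0185) and Hsph1 by 0.53 (adjusted p = 0.0477), where 8.7% of all genes were called higher and 17% either way. The Hspa8 and Hsph1 calls at 5.5 mM were lost without any 1 of the 4 arrays and without the array set term (0.0605 and 0.0911). With the mean of its probe sets Hspa8 changed by 0.13 (adjusted p = 0.528). Hsph1 also lost its call with the mean of probe sets, quantile normalization, no filter, no intensity trend, or a block by array set and replicate number. Without the high replicate 2 at 5.5 mM, Hspa1a and Hspa1b fell against fresh islets (-2.14 and -1.85, adjusted p = 0.0456 and 0.0398). Without the low replicate 1 their changes were 1.21 and 1.03 and did not pass (adjusted p = 0.323 and 0.311), so neither direction is settled at 5.5 mM. The comparisons with fresh old islets share the fresh arrays, and they share their cultured arrays with the comparisons of doses in old islets.

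Markers of other cell types differed between cultured and fresh islets, and their part in the changes of the heat shock genes was not tested. The 8 measured acinar markers of 12 summed to 320 to 1054 in cultured old islets, against 15001 to 29862 in fresh ones. They summed to 614 to 905 in young islets at 11 mM (set A), against 6420 to 12047 in fresh ones. The 8 measured endothelial markers of 9 summed to 376 to 585 in cultured old islets, against 2223 to 2228 in fresh ones. In young islets at 11 mM (set A) they summed to 471 to 540, against 2130 to 2516 in fresh ones. Summed beta cell markers were 20991 to 22727 in old islets at 3 mM, against 36655 to 48215 in fresh old islets, and 6 of the 8 fell (median change -1.15). At 5.5 mM they were 27763 to 29310, and 3 of the 8 fell against fresh islets. The cre-3 control changed by -0.34 at 3 mM and -0.20 at 5.5 mM against fresh old islets. None of these markers was at 0 on all arrays. The 15 measured immediate early genes, which cells switch on within minutes of many stimuli, had a median log2 change of -1.65 in old islets at 11 mM against fresh ones, and 10 of them fell. In young islets at 11 mM against fresh ones their median was -0.83, with 8 that fell and 1 that rose.

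In the time course Dnajb1 was the only one of the 8 to rise by 4 h at 11 mM. It had 1050 and 1488 at 0 h, 1709 and 1490 at 1 h and 2466 and 2397 at 4 h, so the 4 h arrays stood above the rest. It rose by 0.95 at 4 h against 0 h (SE 0.19, adjusted p = 0.00217), where 5.72% of all genes were called higher and 11.4% either way. Without replicate 1 at 0 h the change was 0.70 and the call was lost (adjusted p = 0.0583). Its second probe set had a change of 0.38 that did not pass (adjusted p = 0.381). This direction is opposite to that of 2 days at 11 against 3 mM. However, the time course has no arrays kept at 3 mM for 1 h or 4 h. Elapsed time and glucose therefore cannot be told apart in it. Hsph1 had 1810 and 2746 at 0 h, 1822 and 2253 at 1 h and 2853 and 3259 at 4 h, again highest at 4 h. Its change of 0.45 at 4 h did not pass (adjusted p = 0.123), but did so without replicate 2 at 0 h (0.0271). Pairing of the time course arrays by replicate number, which the labels do not state, likewise entered only as an alternative. With the replicate block Hsph1 passed at 4 h against 0 h (adjusted p = 0.0168). At 1 h against 0 h none of the 8 passed (0.262% of all genes called) and none had an unadjusted p under 0.05. At 4 h against 1 h none passed (3.09% called), with 2 at an unadjusted p under 0.05, and with the replicate block Hsph1 and Dnajb1 passed (0.0068 and 0.00909).

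Hspa1a differed between the replicates of the time course more than between its times. It had 646, 707 and 749 at 0, 1 and 4 h in replicate 1 and 2172, 2034 and 2184 in replicate 2. Replicate 2 was thus 2.88 to 3.36 times as high at each time. Hspa1b had 1437, 1859 and 2550 in replicate 1 and 3747, 3443 and 3935 in replicate 2, which was 1.54 to 2.61 times as high. Acinar markers ran the other way, at 5900, 4256 and 1900 in replicate 1 and 915, 519 and 894 in replicate 2, and their part in the difference was not tested. Hspa8 lay between 6732 and 9522, Hspd1 between 2756 and 3649, Hsp90aa1 between 4627 and 5703 and Hspb1 between 114 and 233 on these 6 arrays, with changes at 4 h between -0.24 and 0.21.

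Between the ages the inducible and the constitutive HSP70 genes had changes of opposite sign, and only that of the constitutive Hspa8 passed. In fresh islets Hspa8 had 3935 and 3593 in old mice against 5799 and 6373 in young mice, a change of -0.69 (SE 0.15, adjusted p = 0.00732), where 3.7% of all genes were called lower and 9.44% either way. At 11 mM on set A it had 3682 and 4326 in old islets against 6485 and 6466 in young ones, a change of -0.70 (SE 0.15, adjusted p = 0.00412; 5.59% lower and 15.6% either way). The call in fresh islets was lost without old replicate 2 (0.0655) or young replicate 2 (0.0699). With the mean of all Hspa8 probe sets the changes were -0.18 (adjusted p = 0.421) and -0.26 (adjusted p = 0.179). The cre-3 control changed by -0.58 and -0.35 in the same 2 comparisons, with the same sign as Hspa8, and its part was not tested. Of 6 measured markers of stellate cells and fibroblasts, 5 fell in fresh islets (median -1.09) and 4 at 11 mM (median -1.15). They summed to 874 to 947 in fresh old islets against 2389 to 3573 in fresh young ones, and to 1478 to 1605 in old islets at 11 mM against 4012 to 4397 in young ones. Of 5 measured markers of alpha, delta and PP cells, 3 fell in fresh islets and none passed at 11 mM. Of 15 measured immediate early genes, 8 were higher in fresh old than in fresh young islets and none lower (median 0.68), and none passed at 11 mM. The 8 measured acinar markers had a median of 1.26 in fresh islets, where none passed. The part of these markers and genes in the differences was not tested. Hspa1b had 1781 and 810 in fresh old islets against 414 and 676 in fresh young ones, a change of 1.16 that did not pass (adjusted p = 0.271). At 11 mM it had 289 and 722 in old islets against 137 and 95 in young ones, without overlap, and its 1.86 just missed (SE 0.64, adjusted p = 0.0517). Without old replicate 1 at 11 mM it passed (0.036). Hspa1a had 784 and 456 in fresh old islets against 161 and 207 in fresh young ones, and its 1.63 did not pass (SE 0.75, adjusted p = 0.181). At an unadjusted p under 0.05 there were 5 of the 8 genes in fresh islets and 4 at 11 mM. In fresh islets Hspd1, Hsph1 and Hsp90aa1 had changes of -0.39, -0.45 and -0.28, and Hspb1 and Dnajb1 of 0.42 and 0.05. At 11 mM Hsp90aa1 changed by -0.35 (adjusted p = 0.0559) and Hspb1 by 0.99 (adjusted p = 0.12).

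Of the 8 genes, 6 have more than 1 probe set. At 11 against 3 mM in old islets all 18 kept probe sets had changes below 0, but of different size. For Hsp90aa1 the brightest probe set did not pass, at -0.27, while the other 2 kept ones fell by 0.92 (adjusted p = 0.00107) and 0.96 (adjusted p = 0.0122). The first of these had 4871 and 4441 at 3 mM, 3265 and 3335 at 5.5 mM and 2728 and 2213 at 11 mM, a wider separation than that of the brightest. In young islets the same probe set fell by 0.61 at 11 mM (adjusted p = 0.0174) and by 0.70 at 16 mM (adjusted p = 0.00681). The second probe set of Dnajb1 fell by 1.55 in old islets at 11 mM (adjusted p = 0.000109), against 0.88 for the brightest. The 3 probe sets of Hspa1b all fell there, with changes between -2.61 and -2.26. For Hspa8, 1 of 4 probe sets stood apart. It fell in old islets at 11 mM against fresh ones (-1.44, adjusted p = 0.00584), where the other 3 had changes of 0.08 to 0.19 that did not pass. The same probe set had 326 and 258 in fresh old islets, against 210 and 196 in fresh young ones. Its direction there was opposite to that of the brightest. The second probe set of Hspb1 fell in young islets at 11 mM against fresh ones (-1.84, adjusted p = 0.0125), where the brightest had -1.12 (adjusted p = 0.175).

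**Figure D3:**
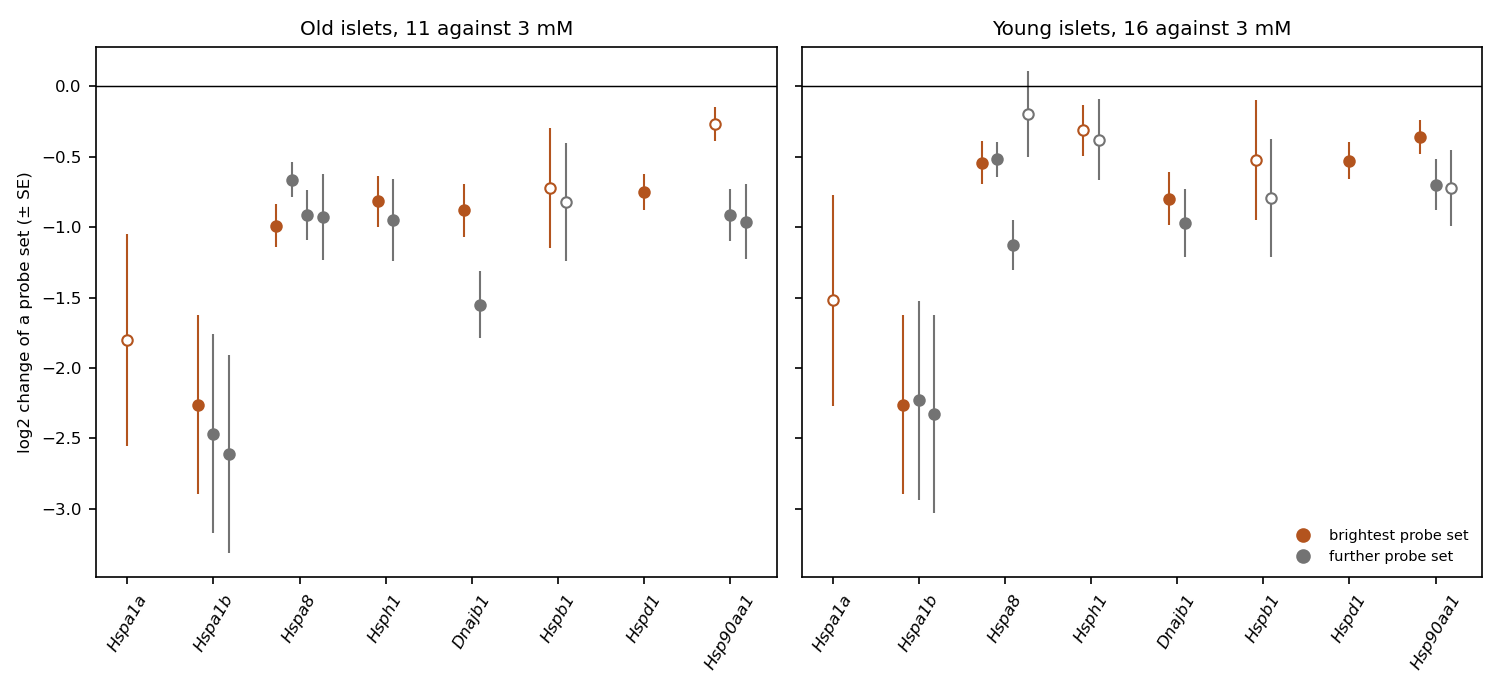
Log2 change with its SE of every kept probe set of the 8 genes at 11 against 3 mM in old islets (left) and at 16 against 3 mM in young islets (right), with the brightest probe set of each gene in orange; filled symbols have an adjusted p under 0.05. The other 2 probe sets of Hsp90aa1 lie further below 0 than its brightest one in both panels.

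Hspa1a and Hspa1b have nearly the same coding sequence, so their probe sets may share targets and their split between the 2 genes is uncertain. Over arrays the 2 had a Pearson r of 0.978 in set A (12 arrays) and 0.977 in set B (14 arrays). Over all 28 pairs of the 8 genes r lay between -0.26 and 0.978 in set A, with a median of 0.419, and between 0.567 and 0.977 in set B, with a median of 0.873. These are descriptions, because the arrays of a set include replicates of the same groups and are not independent. In set A Hspb1 had an r of 0.918 with Hspa1b and of 0.900 with Hspa1a. Among genes outside the 8, by r over the 12 arrays of set A, those most like Hsph1 were Cct6a at 0.959 and Mon2 at 0.946, which had 0.929 and 0.782 in set B. Those most like Hspa8 were Rassf6 at 0.959 and Cct8 at 0.942 (0.611 and 0.630 in set B), and those most like Hspd1 were Ncl at 0.972 and Nampt at 0.963 (0.566 and 0.699). For Dnajb1 they were Ccdc107 at 0.956 and Pdcd11 at 0.935 (0.459 and 0.899). Hspa1a was, outside the 8, most like Arpc4 at 0.917 and Cdyl at 0.887 (0.755 and -0.09), and Hspa1b most like Arpc4 at 0.901 and Tap1 at 0.884 (0.738 and 0.898). For Hspb1 and Hsp90aa1 no gene outside the 8 was above 0.9, with Gga1 at 0.872 and Usf1 at 0.858 for Hspb1 (0.538 and -0.76) and Ndfip2 at 0.893 and Lor at 0.892 for Hsp90aa1 (0.238 and 0.04).

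**Figure D4:**
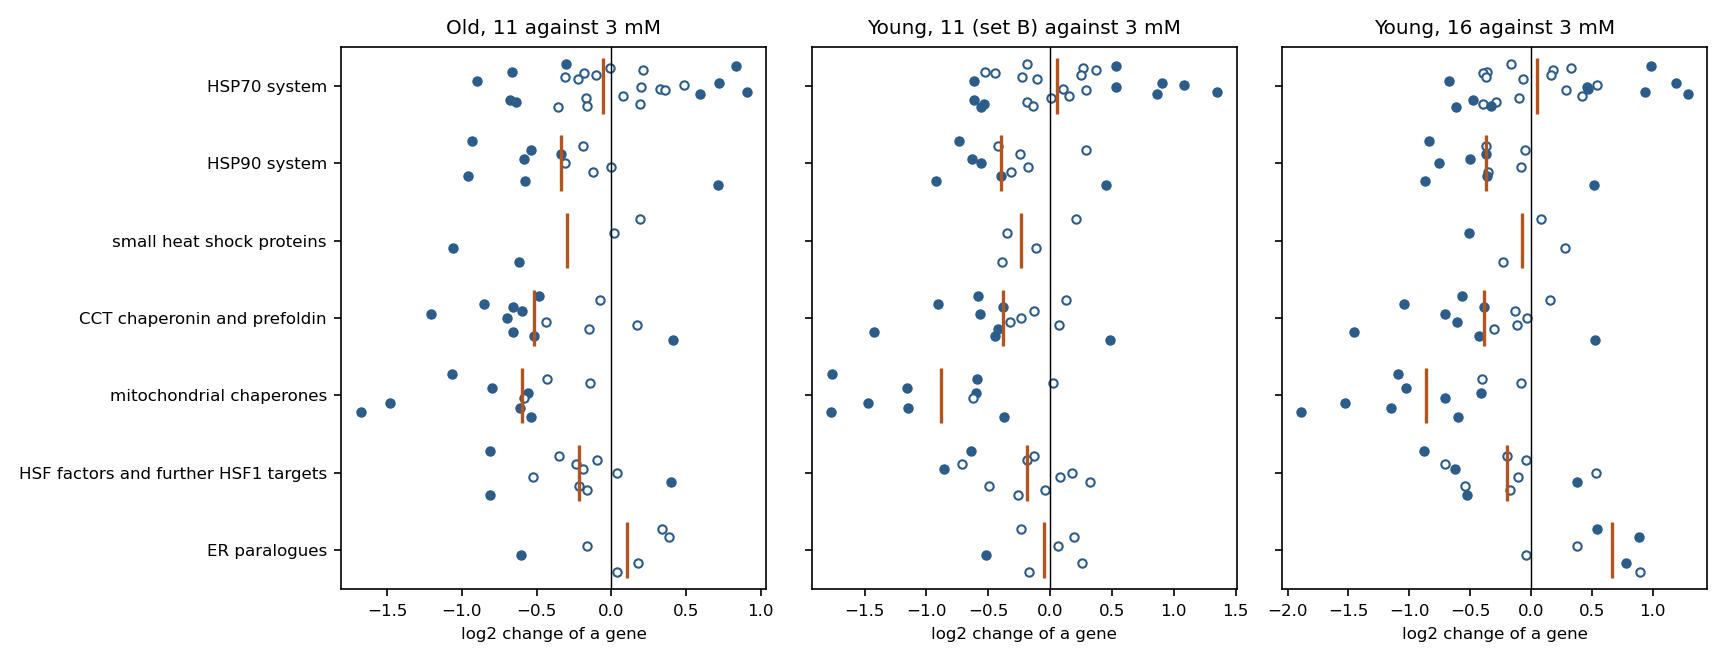
Log2 change of each measured gene of 7 chaperone lists (points, filled where the adjusted p is under 0.05) and the median of each list (orange line), at 11 against 3 mM in old and in young islets and at 16 against 3 mM in young islets. The medians of the mitochondrial chaperones are -0.60, -0.89 and -0.87, and those of the HSP70 system are -0.06, 0.06 and 0.05.

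Partners of the 8 genes were counted in lists of related chaperones. At 11 against 3 mM in old islets 10.6% of all genes were called lower and 24.6% either way. In young islets the shares were 13.1% and 26.4% at 11 mM, and 14.2% and 28.7% at 16 mM. In the mitochondrial list, to which Hspd1 is closest in role, 7 of 10 measured genes fell and none rose at 11 against 3 mM in old islets, and 8 fell and none rose in young islets at 11 mM and at 16 mM. Hspa9, the mitochondrial HSP70, fell in all 3 comparisons, by 1.48 in old islets (adjusted p = 1.68e-06), and its changes were -1.47 in young islets at 11 mM and -1.53 at 16 mM. Lonp1, a mitochondrial protease, had changes of -1.68, -1.77 and -1.89, and Dnaja3, the mitochondrial HSP40, of -0.80, -1.16 and -1.02, all past the threshold. Hspe1, which shares its upstream sequence with Hspd1, fell by 0.61 in old islets and by 1.15 in young islets at both concentrations. In the list of the cytosolic chaperonin CCT and prefoldin, 8 of 13 fell and 1 rose in old islets, and 7 fell and 1 rose in young islets at either concentration. Cct7, Cct8 and Cct5 fell by 1.21, 0.70 and 0.66 in old islets, and Pfdn5, Cct4 and Cct2 fell by 1.42, 0.91 and 0.58 in young islets at 11 mM. Of 11 measured genes of the HSP90 system, in which Hsp90aa1 works, 6 fell and 1 rose in old islets, and 5 fell at 11 mM and 6 at 16 mM in young islets, with 1 rise each. Stip1, which links HSP70 to HSP90, fell by 0.96 in old islets, and Ahsa1, which stimulates the HSP90 ATPase, fell by 0.93 in old islets and by 0.74 and 0.84 in young islets at 11 and 16 mM.

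The list of the HSP70 system, the partners of Hspa1a, Hspa1b, Hspa8, Hsph1 and Dnajb1, went both ways, as did the genes of the whole array. At 11 against 3 mM 4 of 24 rose and 5 fell in old islets, where 1753 of all 12580 genes were called higher and 1337 lower. In young islets 6 rose and 4 fell, where 1672 of all genes were called higher and 1648 lower. Hspa4, an HSP110 relative of Hsph1, fell by 0.68 in old and 0.62 in young islets, whereas Dnajb4, a close relative of Dnajb1, rose by 0.72 in old and 0.91 in young islets. Dnajb2 fell by 0.90 and Bag2 rose by 0.84 in old islets, and Hspa13 rose by 0.87 in young islets. Of 4 measured small heat shock genes, Hspb6 fell by 1.06 and Hspb8 by 0.61 in old islets at 11 mM, and none passed in young islets at 11 mM. Of 11 measured HSF factors and further HSF1 targets, 2 fell and 1 rose in old islets at 11 mM, and 2 fell and none rose in young islets. Of all genes, 10.6% and 13.1% were called lower in these comparisons. Cacybp was among those that fell, by 0.81 in old and 0.64 in young islets. Of 6 chaperones of the endoplasmic reticulum, only Hspa5 passed at 11 against 3 mM, with a fall of 0.60 in old and 0.52 in young islets. The medians of that list were 0.11 and -0.05. At 16 against 3 mM Dnajc3, Hyou1 and Dnajb11 rose by 0.89, 0.78 and 0.54, and none fell. At 11 mM against fresh islets few partners passed, where 5.56% of all genes were called in old and 4.19% in young islets. Hspa9 rose by 0.56 in old and 0.65 in young islets, Fkbp4 and Stip1 by 0.55 and 0.46 in old islets, and Hspa4 by 0.42 in young islets. Ier5, an immediate early gene that acts on HSF1, fell by 0.88 in old and 0.59 in young islets, and Hmox1, which breaks down heme, rose by 2.42 and 1.80. In the time course Dnajb4, Dnaja1 and Hspa4 rose with Dnajb1 by 4 h against 0 h, by 0.98, 0.63 and 0.55.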

How the data were processed

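From 50 ng of total islet RNA, cDNA was synthesised in 2 rounds, labelled with biotin and hybridised to Affymetrix arrays, per the labels' protocols. The authors deposited 1 intensity per probe set and array on a linear scale, made with MAS5 per the submitters' processing notes, whose version is not given in the sources used here. The deposited intensities have a mean of 150 after trimming 2% at each end of every array.

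Of 45101 probe sets, 34945 have 1 gene symbol in the platform annotation and 932 have several, which were not used. Intensities were taken as log2(value + 16). A probe set was kept if it exceeded the median of its array on 2 or more of the 26 arrays (23047 with 1 symbol), and the brightest stood for each of 12580 genes. Limma 3.58.1 in R 4.3.3 fitted 12 group means and the array set over all arrays, with an intensity trend (13 residual and 7.02 prior degrees of freedom). The 20 comparisons are contrasts of this model, each adjusted by Benjamini-Hochberg over all genes at 0.05. The pipeline was tested on simulated data. The 8 genes, the lists of partners and markers and the array sets were chosen with earlier results of these data known. Genes of the lists are named where they passed with the 3 smallest adjusted p of their list in the main comparisons. For each of the 8, the 2 genes outside the 8 with the highest correlation over set A are named.

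Pairing by replicate number was checked as the correlation, across all genes, of how far 2 arrays with 1 number lay from the means of their groups. Among the cultured young groups of set B it was 0.17 to 0.42 (6 pairs), and among the time course groups 0.55 to 0.63 (3 pairs). Pairing by number was therefore taken as possible in both. The main model has no term for it, so its p-values are unpaired, and replicate blocks were fitted only as alternatives. Between cultured young groups of set B and old groups, which come from different mice, it was 0.051 to 0.22 (16 pairs). That range overlaps the range of the cultured young groups, so their pairing is uncertain. Among the old groups it was 0.056 to 0.2 (6 pairs), and between fresh and cultured young groups -0.01 to 0.035 (4 pairs), so their numbers were not taken to pair.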

Additional observations from a re-analysis of the deposited data

How the results depend on the processing

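Alternatives were another offset, no filter, no intensity trend, quantile normalization, the mean of probe sets, no array set term, 1 array set alone, replicate blocks and leaving out each array. Leaving out an array leaves most groups with 1 and widens the SE, so a call lost there can reflect fewer arrays. The block within each experiment was added after the data were seen. No called value changed sign in any alternative, and no value that changed sign was called in that alternative. Of 132 values not called, 66 changed sign in at least 1 alternative. Of 28 called values of the 8 genes, 16 lost their call in at least 1 alternative (61 of 380 alternatives), and of 132 not called, 34 gained one (63 of 1916). 
Numbers of the 8 genes called that moved by over 1.5 times were as follows. With the array set and replicate block, culture at 11 mM against fresh called 2 in young islets (0 before) and 3 over both ages (1 before), 5.5 against 3 mM called 1 in old (2) and 2 in young islets (1), 11 against 5.5 mM called 1 in old islets (0), and old against young at 11 mM called 3 (1). With the block within each experiment, culture at 11 mM against fresh called 1 in old islets (0), 2 in young (0) and 3 over both ages (1), 11 against 5.5 mM called 2 in old islets (0), 5.5 against 3 mM called 3 in young islets (1), 4 h called 2 against 0 h (1) and 2 against 1 h (0), and old against young called 4 in fresh islets (1) and 5 at 11 mM (1). In both block settings the 2 set A arrays of young islets at 11 mM form a block alone. The difference between these 2 arrays then adds nothing to the estimated spread. The same holds for the 2 fresh young arrays in the block within each experiment. Counts that use these groups therefore rest on the spread of other arrays. Without the array set term, 5.5 mM against fresh called 1 in old islets (3), and 5.5 against 3 mM called 0 at both ages (2 in old and 1 in young islets). With the mean of probe sets, culture at 11 mM against fresh called 1 in young islets (0) and 2 over both ages (1), 5.5 mM against fresh called 1 (3), and old against young called 0 in fresh islets and at 11 mM (1 each). With quantile normalization, 11 against 5.5 mM called 2 in old (0) and 1 in young islets (0), and 5.5 against 3 mM called 2 in young islets (1). With 1 array set alone, culture at 11 mM against fresh called 1 in old islets (0), 11 against 5.5 mM called 2 in old islets (0), 5.5 against 3 mM called 2 in young islets (1), and old against young called 2 in fresh islets and at 11 mM (1 each). No filter or no trend gave 1 for 5.5 against 3 mM in old islets (2), and an offset of 1 gave 2 for old against young at 11 mM (1). The cause of these moves was not tested.
In old islets, whose numbers were not taken to pair, the block within each experiment also called Hspa1a (adjusted p = 0.0109) and Hspb1 (0.0261) at 11 against 3 mM.
Leaving out 1 array gave 4 to 5 calls for 11 against 3 mM in old islets, 2 to 4 in young islets and 1 to 5 for 16 against 3 mM. It gave 0 to 1 for 5.5 against 3 mM at both ages, 0 to 1 for 11 against 5.5 mM in old islets, 4 to 4 for 3 mM against fresh, 1 to 3 for 5.5 mM against fresh and 0 to 2 for culture at 11 mM over both ages. It gave 0 to 2 for 4 h against 0 h, 0 to 1 for old against young in fresh islets, 1 to 2 at 11 mM, and 0 to 0 for the other 8 comparisons. With 1 array set alone, the difference between ages in the effect of 11 against 3 mM could not be fitted.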
